A study of Mus musculus with 6 samples.

Results

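The 33 genes described here encode the proteins that make coenzyme Q, feed electrons into it from sources other than the respiratory complexes, assemble iron-sulfur clusters and make heme. They were chosen by gene symbol from a list of these pathways, not by a rule on their values, though with earlier results of these data known. They are 33 of the 22535 gene rows in the deposited table. The study compared B16-BL6 cells, an invasive line of the B16 mouse melanoma, that carried a guide RNA against Ndufs4 (sgNDUFS4, n = 3 libraries) with B16-BL6 cells that carried a control guide (sgControl, n = 3 libraries). All cells were grown in DMEM with serum and sodium pyruvate, with no other treatment named, and polyadenylated RNA was sequenced from both ends of each fragment without keeping the strand. The labels say neither whether each line was a clone or a pool of cells, nor whether the replicates were separate cultures. What the p-values measure is thus the variation among 6 libraries, which could be technical only, and the guide cannot be told apart from other differences between the lines.

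Complex I, the respiratory enzyme that contains the Ndufs4 protein, passes electrons from NADH through a chain of iron-sulfur clusters to coenzyme Q, a lipid in the inner mitochondrial membrane. Electrons also reach coenzyme Q by other routes, among them the electron transfer flavoprotein, which carries them from fatty acid and amino acid oxidation, and proline dehydrogenase. Iron-sulfur clusters are built in the mitochondrial matrix on the scaffold protein Iscu and handed on by carrier proteins, and heme synthesis begins and ends in the matrix, with the last step inserting iron into the ring.

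Reads counted in genes numbered between 23910781 and 25947374 in sgNDUFS4 libraries and between 20090607 and 23652793 in sgControl libraries, so that 3 reads correspond to 0.116 to 0.149 CPM in a library, where CPM is the read count of a gene scaled to library size by the authors. The targeted gene, Ndufs4 (ENSMUSG00000021764.8, chromosome 13), was at 14.99, 15.98 and 16.84 CPM in the sgNDUFS4 libraries, against 54.3, 55.0 and 52.4 CPM in the sgControl libraries. Markers of the melanocyte lineage summed to between 14505 and 15529 CPM in sgNDUFS4 and between 15377 and 15893 CPM in sgControl, but they did not move together: by limma Pmel and Mitf were higher, with log2 fold changes of 0.34 and 0.16, while Mlana (-0.42), Dct (-0.31), Tyrp1 (-0.15) and Sox10 (-0.12) were lower. Centred on neighbours, Mitf and Tyrp1 were not called and Sox10 was called higher. Of 7 markers of erythroid cells, a cell type with high heme synthesis, 6 were at 0 in every library, among them the erythroid enzyme Alas2. The 7 together reached at most 1.16 CPM in sgNDUFS4 and 0.338 CPM in sgControl. Markers of endothelial cells were at 0 in all libraries, and those of keratinocytes summed to at most 0.271 CPM in sgNDUFS4 and 0.180 CPM in sgControl. Leukocyte markers summed to at most 3.14 CPM in sgNDUFS4 and 2.34 CPM in sgControl. Fibroblast markers summed to between 41.4 and 46.1 CPM in sgNDUFS4 and between 41.8 and 44.1 CPM in sgControl, with Dcn and Lum at 0. In these bulk samples a smaller share of cells that express a gene and less of its RNA per cell cannot be told apart.

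All 33 genes had a row, Sqrdl under its current symbol Sqor, and 32 passed the filter, which asked for a 6-library mean of 1 CPM or more. With limma on log2(CPM + 0.5) and a Benjamini-Hochberg threshold of 0.05 over all 11063 genes tested, 11 of the 32 (34.4%) were higher in sgNDUFS4 and 2 (6.25%) were lower, while 19 did not pass. Over all genes tested, 31.8% were higher and 20.3% were lower (52.0% in either direction), so the share of these genes that was higher is near that of the whole table, while the share that was lower is below it. The median log2 fold change was 0.12 over the 32 genes and 0.06 over all genes tested. The groups did not overlap for 18 of the 32 genes, 15 higher and 3 lower, against 57.2% of all genes tested (35.0% higher). The 11 that rose were all 4 measured genes of electron entry to coenzyme Q (Etfa, Etfb, Etfdh, Prodh), 4 of 10 genes of iron-sulfur assembly (Iscu, Isca2, Nfu1, Lyrm4), 2 of 7 heme enzymes (Uros, Cpox) and 1 of 11 genes of coenzyme Q synthesis (Coq9). The 2 that fell were Coq7 of coenzyme Q synthesis and Glrx5 of iron-sulfur assembly. The calls for Coq7, Iscu, Isca2 and Lyrm4 were lost under at least 1 alternative, and those for the other 9 were kept under all 17. As deposited, 61.1% of all calls were higher. With TMM scaling it was 48.9%, and that scaling called 10 of the 32 genes higher and 3 lower, the added fall being Pdss1, against 24.8% higher and 25.9% lower of all genes tested. With edgeR it was also 10 higher and 3 lower, against 24.6% and 25.9% of all genes, and DESeq2 called 8 higher and 3 lower, against 23.5% and 25.0% of all genes. When each gene was centred on its 50 nearest expressed neighbours on the chromosome, 11 were higher and 5 lower, against 21.6% higher and 21.9% lower of the 10881 genes in that fit.

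**Figure D1:**
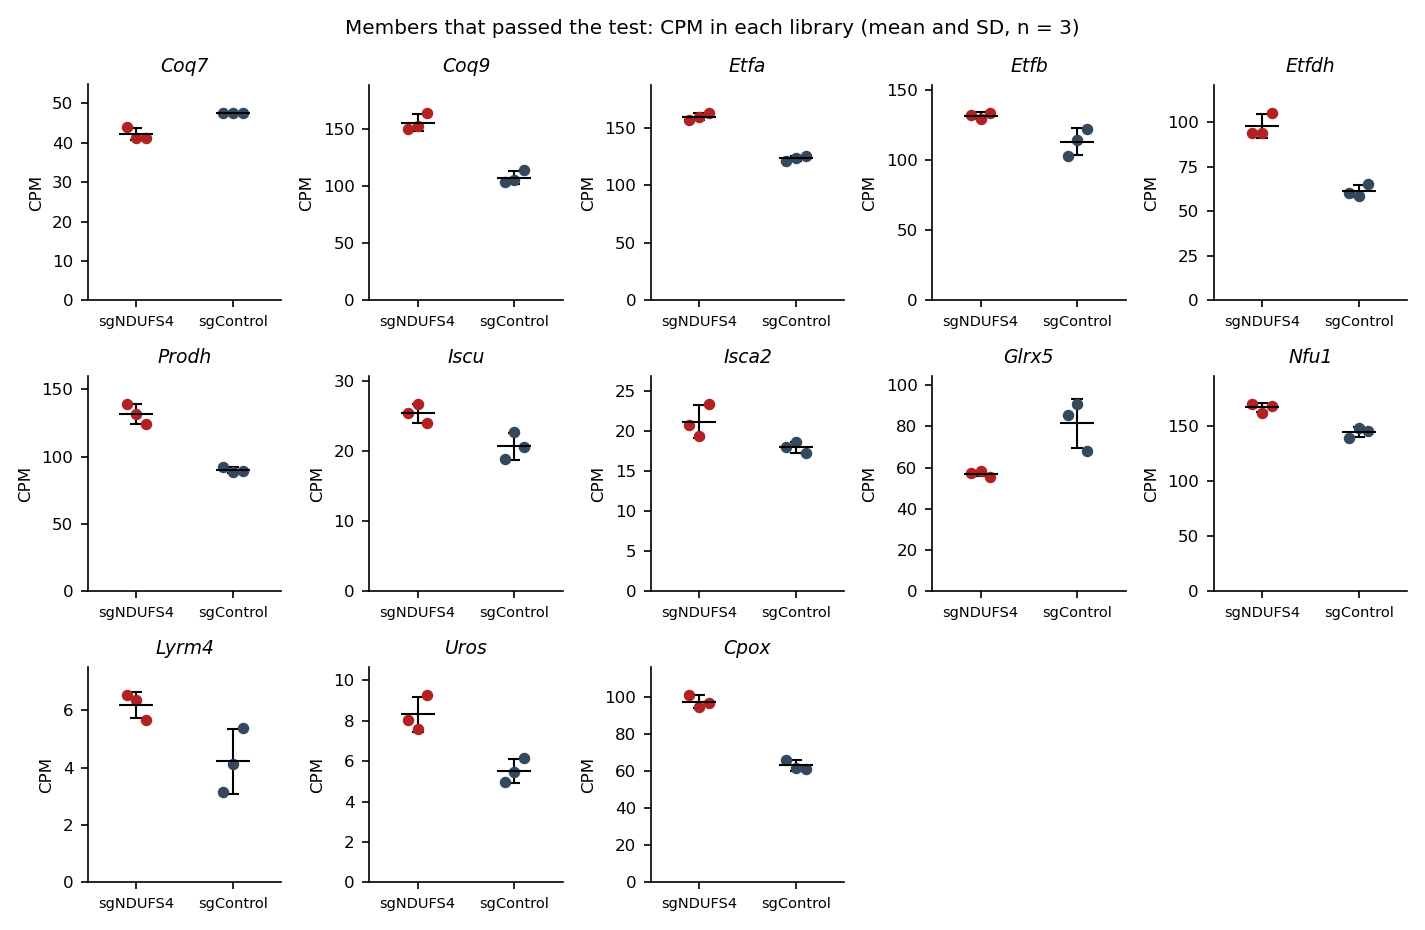
CPM of the 13 genes that passed the limma threshold, one panel a gene, with a point for each library, sgNDUFS4 left and sgControl right, and bars for the mean and SD of each group. All 4 electron entry genes sit higher in sgNDUFS4, as in Etfdh with a mean of 97.6 CPM in sgNDUFS4 and 61.3 CPM in sgControl, while Glrx5 sits lower in sgNDUFS4 with 57.1 CPM against 81.5 CPM in sgControl.

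The promoters of 6 of the called genes are shown: those of the 4 electron entry genes, which rose together, and those of Coq7 and Glrx5, which fell. They are the bases before the RefSeq start of each gene in GRCm38.p6, read 5′ to 3′ on the strand of the gene. Annotated untranslated bases of Etfdh and Prodh were left out. For these 2 genes the printed bases lie within the GENCODE gene, whose 5′ end is further upstream, at 79629500 for Etfdh and 18090203 for Prodh. The minus strand carries Etfdh (chr3:79628864-79629017), Etfa (chr9:55512244-55512493), Prodh (chr16:18089293-18089440) and Coq7 (chr7:118533357-118533606), and the plus strand carries Etfb (chr7:43443822-43444071) and Glrx5 (chr12:105032368-105032617). Capitals mark matches, on either strand, to a site of NRF1, to CCAAT, or to TGACNNNGC of the antioxidant response element. The search for the NRF1 site left a middle base free, so a match need not be a palindrome. The match in Etfdh is a palindrome and the match in Etfb is not.
Etfdh: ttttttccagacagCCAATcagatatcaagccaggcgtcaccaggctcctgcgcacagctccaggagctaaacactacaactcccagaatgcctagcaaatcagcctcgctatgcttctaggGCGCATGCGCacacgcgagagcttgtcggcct
Etfb: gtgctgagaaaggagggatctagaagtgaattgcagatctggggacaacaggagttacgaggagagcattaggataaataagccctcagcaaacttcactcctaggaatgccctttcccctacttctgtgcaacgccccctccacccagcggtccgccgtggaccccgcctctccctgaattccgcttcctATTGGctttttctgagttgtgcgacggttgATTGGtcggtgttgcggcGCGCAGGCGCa
Etfa: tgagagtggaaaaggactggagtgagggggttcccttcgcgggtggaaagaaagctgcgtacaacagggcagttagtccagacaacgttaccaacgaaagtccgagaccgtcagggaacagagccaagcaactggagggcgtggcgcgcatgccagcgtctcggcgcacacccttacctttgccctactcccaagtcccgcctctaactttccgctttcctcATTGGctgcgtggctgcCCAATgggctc
Prodh: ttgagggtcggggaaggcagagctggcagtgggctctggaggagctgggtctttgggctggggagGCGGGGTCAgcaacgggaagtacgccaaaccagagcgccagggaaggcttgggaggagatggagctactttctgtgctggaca
Coq7: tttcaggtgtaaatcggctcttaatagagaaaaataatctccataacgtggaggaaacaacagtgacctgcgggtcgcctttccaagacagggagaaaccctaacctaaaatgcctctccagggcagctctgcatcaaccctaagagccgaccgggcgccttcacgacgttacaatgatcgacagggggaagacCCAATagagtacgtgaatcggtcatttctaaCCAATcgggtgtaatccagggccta
Glrx5: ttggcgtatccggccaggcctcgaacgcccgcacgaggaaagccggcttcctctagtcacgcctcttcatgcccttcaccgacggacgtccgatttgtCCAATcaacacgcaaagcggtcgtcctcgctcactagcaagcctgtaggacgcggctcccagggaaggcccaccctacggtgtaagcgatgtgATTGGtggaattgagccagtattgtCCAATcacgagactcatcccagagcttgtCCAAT

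Matches to the NRF1 site stood in the promoters of Etfdh, 128 to 119 bases before the start, and of Etfb, 11 to 2 bases before it. NRF1 is a transcription factor of genes for mitochondrial proteins. Counting the first promoter RefSeq lists for each gene, the match occurred in 4 of the 29 listed genes that have one (13.8%), also in Uros and Isca1, and in 3.74% of 32851 promoters of the same length. A second promoter of Alas1 held 2 more matches, and the counts below also take the first promoter of each gene. CCAAT stood once or more in the promoters of Etfdh, Etfb, Etfa, Coq7 and Glrx5, and in 15 of the 29 genes (51.7%) against 33.8% of all promoters. The promoter of Glrx5, which fell, held 4 copies. The letters of the antioxidant response element stood in Prodh, 185 to 177 bases before the start, and in 4 of the 29 genes (13.8%, with Coq9, Nfs1 and Isca1) against 10.2% of all promoters. The E-box CACGTG was in 5 of the 29 genes (17.2%) against 6.02% of all promoters, and AAGGTCA, a site of the estrogen-related receptors, in 3 (10.3%) against 4.08%. A match of letters is a description and not a binding site. The 32851 promoters include genes that are silent in these cells.

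The 4 measured genes of the electron entry group were all higher in sgNDUFS4, in every library. The group does not hold every gene with this role. Dhodh and Gpd2 encode other mitochondrial enzymes that pass electrons to coenzyme Q, and neither passed the test. Their log2 fold changes were 0.04 and 0.15 (adjusted p = 0.67 and 0.13 by limma). Etfdh, which encodes the membrane oxidoreductase that passes electrons from the electron transfer flavoprotein to coenzyme Q, was at 93.85, 93.64 and 105.17 CPM in sgNDUFS4, against 60.03, 58.56 and 65.32 CPM in sgControl. The lowest sgNDUFS4 library lay well above the highest sgControl library. The log2 fold change of Etfdh (ENSMUSG00000027809.14, chromosome 3, 79603788 to 79629500, minus strand, GRCm38) was 0.67 (SE 0.057, adjusted p = 2.8e-10 by limma), the largest of the 13 called genes as deposited, though not when centred on neighbours (0.36, below Uros, Prodh and Cpox). Etfdh shares 278 exonic bases with 4930579G24Rik on the opposite strand, and without strand the reads of such a pair cannot be told apart. That gene was also higher, at 15.6 CPM in sgNDUFS4 and 11.3 CPM in sgControl.

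Etfa and Etfb encode the 2 subunits of the electron transfer flavoprotein itself. Etfa (ENSMUSG00000032314.14, chromosome 9, 55454508 to 55512243, minus strand) was at 156.75, 159.18 and 162.98 CPM in sgNDUFS4, against 121.05, 123.71 and 124.98 CPM in sgControl, with a log2 fold change of 0.37 (SE 0.041, adjusted p = 2.6e-08 by limma). Etfb (ENSMUSG00000004610.4, chromosome 7, 43444083 to 43457800, plus strand) was at 132.27, 129.19 and 134.00 CPM in sgNDUFS4, against 103.28, 114.62 and 122.19 CPM in sgControl, and rose by 0.22 (SE 0.050, adjusted p = 0.00069 by limma). Both subunits were thus higher in all 3 sgNDUFS4 libraries, and the sgControl libraries spread more for Etfb than for Etfa. Etfb shares 617 exonic bases with the gene model Gm45233 on the same strand, which was counted at 122 ± 1.83 CPM in sgNDUFS4 and 105 ± 9.34 CPM in sgControl (SD, n = 3 each). How reads were divided between them is not given, so the value of Etfb is uncertain.

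Prodh, proline dehydrogenase, oxidises proline in the mitochondrion and passes the electrons to coenzyme Q. It was at 139.29, 131.49 and 123.98 CPM in sgNDUFS4, against 92.23, 88.70 and 89.20 CPM in sgControl. The groups were far apart relative to their spread, with means of 131.6 ± 7.65 CPM in sgNDUFS4 and 90.0 ± 1.91 CPM in sgControl (SD, n = 3 each). Prodh (ENSMUSG00000003526.12, chromosome 16, 18060357 to 18090203, minus strand) had a log2 fold change of 0.54 (SE 0.048, adjusted p = 5.0e-10 by limma). The fifth gene of electron entry, Sqor, which oxidises hydrogen sulfide and passes the electrons to coenzyme Q, was without a read in all 3 sgNDUFS4 libraries, against 0.25, 0.08 and 0 CPM in sgControl. Both groups lay at or near the level of 3 reads, so no fold change is given. Summed over the 5 listed genes of electron entry, the level was 522, 513 and 526 CPM in sgNDUFS4, against 377, 386 and 402 CPM in sgControl.

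Among the 11 genes of coenzyme Q synthesis, 1 rose (9.09%), 1 fell (9.09%) and 9 did not pass the test. Of all genes tested, 31.8% were higher and 20.3% lower, so this group held a smaller share of calls in both directions. The median log2 fold change of the 11 genes was 0.12. The 2 that passed act in the same step: Coq7 is the di-iron hydroxylase that adds a late hydroxyl group to the ring, and Coq9 is the lipid-binding protein that presents the substrate to Coq7. Coq9 (ENSMUSG00000031782.15, chromosome 8, 94838321 to 94854895, plus strand) was at 149.94, 153.19 and 164.60 CPM in sgNDUFS4, against 103.38, 105.23 and 114.29 CPM in sgControl. It had a log2 fold change of 0.53 (SE 0.047, adjusted p = 5.9e-10 by limma) and shares 38 exonic bases with Ciapin1 on the opposite strand. Coq7 (ENSMUSG00000030652.11, chromosome 7, 118509659 to 118533356, minus strand) was at 43.88, 41.28 and 41.24 CPM in sgNDUFS4, against 47.58, 47.56 and 47.40 CPM in sgControl. The groups of Coq7 did not overlap, but the difference was small, with a log2 fold change of -0.17 (SE 0.062, adjusted p = 0.022 by limma). The Coq7 call was lost without sgControl replicate 2 (adjusted p = 0.050), without sgNDUFS4 replicate 2 (0.0736) and without sgNDUFS4 replicate 3 (0.0685), and under each of these the genes of the whole list called lower numbered 1 in place of 2.

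The 9 other genes of coenzyme Q synthesis had log2 fold changes between -0.20 and 0.30. Pdss1 and Pdss2 form the enzyme that makes the polyprenyl tail. Pdss1 was at 18.17, 18.11 and 16.19 CPM in sgNDUFS4, against 21.25, 18.81 and 20.29 CPM in sgControl, with groups that did not overlap and a limma adjusted p of 0.085. It was called lower with TMM scaling (log2 fold change -0.26, adjusted p = 0.027 by limma) and when centred on its neighbours (-0.26, adjusted p = 0.030). Pdss2 was at 11.97, 11.96 and 12.72 CPM in sgNDUFS4, against 11.65, 10.10 and 8.13 CPM in sgControl, with a log2 fold change of 0.30 (95% interval 0.030 to 0.56, adjusted p = 0.058 by limma). The 2 subunits of this enzyme thus had values of opposite sign, and neither passed the test.

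Coq2, which joins the tail to the ring precursor, was at 25.49, 23.13 and 27.13 CPM in sgNDUFS4, against 23.19, 21.05 and 25.32 CPM in sgControl, so the groups overlapped. The methyltransferases Coq3 and Coq5 had log2 fold changes of -0.11 and 0.12. Coq4, required for synthesis and for the enzyme complex that carries it out, had 0.12, and shares 921 exonic bases with Trub2 on the opposite strand. Coq6, a monooxygenase that hydroxylates the ring, was at 36.64, 35.38 and 35.49 CPM in sgNDUFS4, against 33.35, 31.58 and 32.50 CPM in sgControl. Its groups did not overlap, the log2 fold change was 0.14 with a limma adjusted p of 0.094, and centred on its neighbours it was called higher at 0.23 (adjusted p = 0.0086). Coq10a and Coq10b, lipid-binding proteins needed for the function of coenzyme Q in respiration, had log2 fold changes of 0.27 and -0.15, and neither passed. Coq10a passed without sgNDUFS4 replicate 2, its lowest library in that group at 9.79 CPM, with a log2 fold change of 0.42 (adjusted p = 0.014 by limma). The summed level of the 11 genes was 367, 357 and 381 CPM in sgNDUFS4, against 318, 309 and 325 CPM in sgControl, of which Coq9 alone held 155.9 ± 7.70 CPM in sgNDUFS4 and 107.6 ± 5.84 CPM in sgControl (SD, n = 3 each).

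**Figure D2:**
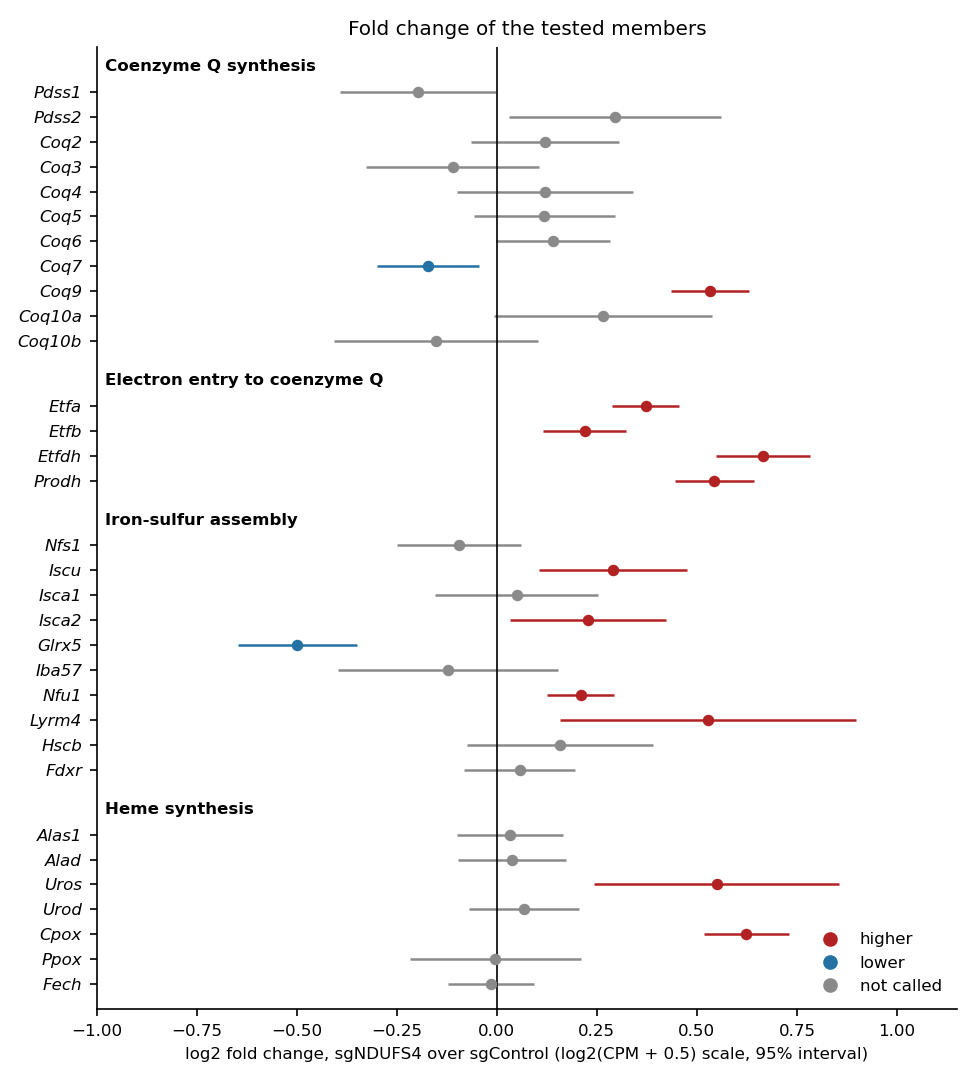
Log2 fold change of sgNDUFS4 over sgControl on the log2(CPM + 0.5) scale for the 32 genes tested, grouped by role, with 95% intervals from limma and the called genes marked. Electron entry lies wholly above 0, coenzyme Q synthesis and heme synthesis hold many genes near 0, and Glrx5 at -0.50 stands lowest.

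Iron-sulfur assembly held the largest fall of the whole list. Glrx5, the mitochondrial glutaredoxin that carries new clusters onward from the scaffold, was at 57.36, 58.30 and 55.65 CPM in sgNDUFS4, against 85.51, 91.07 and 68.01 CPM in sgControl. The sgNDUFS4 libraries lay close together and the sgControl libraries were spread, but the lowest sgControl library stood above every sgNDUFS4 library. Glrx5 (ENSMUSG00000021102.4, chromosome 12, 105032688 to 105042906, plus strand) had means of 57.1 ± 1.34 CPM in sgNDUFS4 and 81.5 ± 12.0 CPM in sgControl (SD, n = 3 each) and a log2 fold change of -0.50 (SE 0.072, adjusted p = 2.3e-06 by limma).

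Nfu1, a late-acting carrier that hands clusters to their target proteins, was at 170.70, 162.56 and 168.76 CPM in sgNDUFS4, against 139.47, 148.78 and 145.89 CPM in sgControl. All 3 sgNDUFS4 libraries lay above all sgControl libraries, and the log2 fold change of Nfu1 (ENSMUSG00000029993.16, chromosome 6, 87009236 to 87028461, plus strand) was 0.21 (SE 0.041, adjusted p = 0.00012 by limma). Iscu, the scaffold, was at 25.37, 26.72 and 23.97 CPM in sgNDUFS4, against 18.81, 22.66 and 20.60 CPM in sgControl. The log2 fold change of Iscu (ENSMUSG00000025825.12, chromosome 5, 113772748 to 113778288, plus strand) was 0.29 (SE 0.090, adjusted p = 0.0088 by limma), and its adjusted p was 0.057 without sgControl replicate 1, 0.0505 without sgNDUFS4 replicate 2 and 0.054 with DESeq2.

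Lyrm4, also known as Isd11, which stabilises the cysteine desulfurase Nfs1, was at 6.55, 6.36 and 5.67 CPM in sgNDUFS4, against 3.14, 4.14 and 5.39 CPM in sgControl. The highest sgControl library came close to the lowest sgNDUFS4 library. Lyrm4 (ENSMUSG00000046573.7, chromosome 13, 35978395 to 36117526, minus strand) had a log2 fold change of 0.53 (SE 0.18, adjusted p = 0.016 by limma). The call was lost under 6 of 17 alternatives, among them the fits without sgControl replicate 1 (0.35, adjusted p = 0.11), without sgNDUFS4 replicate 1 (0.49, 0.066) and without sgNDUFS4 replicate 2 (0.51, 0.053). Its 50 nearest expressed neighbours had a median log2 fold change of 0.35, and centred on them Lyrm4 was at 0.18 (adjusted p = 0.45). It shares 115 exonic bases with Fars2 on the opposite strand, which was also higher, with a log2 fold change of 0.60 (adjusted p = 7.7e-05 by limma).

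Isca2, which with Isca1 and Iba57 acts late in assembly, on the clusters that hold more iron, was at 20.76, 19.41 and 23.43 CPM in sgNDUFS4, against 18.02, 18.69 and 17.24 CPM in sgControl. The groups of Isca2 (ENSMUSG00000021241.7, chromosome 12, 84773251 to 84775088, plus strand) did not overlap, but the call was at the edge of the threshold, with a log2 fold change of 0.23 (adjusted p = 0.047 by limma), and it was lost under 11 of 17 alternatives. Those were TMM scaling, quantile normalization, edgeR, DESeq2, no filter, no mean-variance trend, and the fits without any 1 of the libraries except sgNDUFS4 replicate 2, with adjusted p-values of up to 0.235 without sgNDUFS4 replicate 3. Isca1 was at 16.89, 18.57 and 17.50 CPM in sgNDUFS4, against 15.63, 17.38 and 18.18 CPM in sgControl, and Iba57 had a log2 fold change of -0.12. The neighbours of Isca1 had a median of 0.35, and centred on them Isca1 was called lower, at -0.30 (adjusted p = 0.019), against 0.05 before. These 3 partner proteins thus did not share 1 outcome.

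Nfs1, the cysteine desulfurase that supplies the sulfur, was at 34.71, 41.91 and 43.82 CPM in sgNDUFS4, against 42.16, 42.62 and 43.23 CPM in sgControl. The sgControl libraries lay close together. Replicate 1 of sgNDUFS4 lay below all others and replicate 3 of sgNDUFS4 above all others, so the groups overlapped (log2 fold change -0.09, adjusted p = 0.31 by limma). Nfs1 shares exonic bases with Gm28036 on the same strand and with Romo1 on the opposite strand, so its count is uncertain. Hscb, the co-chaperone that helps release clusters from Iscu, was at 12.39, 13.05 and 12.64 CPM in sgNDUFS4, against 10.90, 12.05 and 11.04 CPM in sgControl, without overlap but with a limma adjusted p of 0.25. Fdxr, the reductase that feeds electrons to the mitochondrial ferredoxins, also had groups without overlap, at 36.33, 38.06 and 37.00 CPM in sgNDUFS4 and 35.94, 36.06 and 34.97 CPM in sgControl, with a log2 fold change of 0.06 (adjusted p = 0.50 by limma). The summed level of the 10 assembly genes overlapped between the groups, at 392, 395 and 398 CPM in sgNDUFS4 and 383, 403 and 375 CPM in sgControl.

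In heme synthesis 2 of 7 enzymes were higher (28.6%) and 0 lower, against 31.8% and 20.3% of all genes tested. Both act between the first steps and the last, as do Urod and Ppox, which did not pass. Cpox, coproporphyrinogen oxidase, which works in the space between the mitochondrial membranes, was at 101.25, 94.39 and 96.81 CPM in sgNDUFS4, against 66.25, 61.81 and 61.23 CPM in sgControl. The spread within each group was small beside the distance between them, and Cpox (ENSMUSG00000022742.6, chromosome 16, 58670292 to 58717636, plus strand) had a log2 fold change of 0.62 (SE 0.052, adjusted p = 1.8e-10 by limma). Uros, uroporphyrinogen synthase, which closes the ring, was at 8.06, 7.61 and 9.29 CPM in sgNDUFS4, against 4.98, 5.45 and 6.15 CPM in sgControl. Uros (ENSMUSG00000030979.13, chromosome 7, 133686243 to 133710072, minus strand) had means of 8.32 ± 0.868 CPM in sgNDUFS4 and 5.53 ± 0.590 CPM in sgControl (SD, n = 3 each) and a log2 fold change of 0.55 (SE 0.15, adjusted p = 0.0032 by limma).

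The enzymes at the start and end of the heme pathway did not pass the test. Alas1, the rate-limiting first enzyme in cells other than red cells, was at 50.59, 47.51 and 54.15 CPM in sgNDUFS4, against 48.98, 47.10 and 52.66 CPM in sgControl. The groups overlapped throughout, and the log2 fold change of 0.03 had a 95% interval of -0.10 to 0.17. Fech, the iron-inserting last enzyme and itself an iron-sulfur protein in mammals, was at 69.84, 75.91 and 74.92 CPM in sgNDUFS4, against 75.16, 72.80 and 74.83 CPM in sgControl, with a log2 fold change of -0.01 (95% interval -0.12 to 0.092). Its neighbours had a median of 0.14, and centred on them Fech was called lower, at -0.16 (adjusted p = 0.020). The overlap of the libraries was as plain for Alad, the second enzyme, at 39.55, 40.86 and 40.70 CPM in sgNDUFS4 and 39.82, 37.67 and 40.45 CPM in sgControl. Urod, which acts between Uros and Cpox, had a log2 fold change of 0.07, and Ppox, which acts between Cpox and Fech, had -0.00 (95% interval -0.22 to 0.21) and shares 791 exonic bases with B4galt3 on the opposite strand. The summed level of the 7 enzymes was 334, 332 and 343 CPM in sgNDUFS4, against 296, 287 and 303 CPM in sgControl. For all 19 genes of the list that did not pass, the 95% interval of the change lay within 1.5-fold in either direction.

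**Figure D3:**
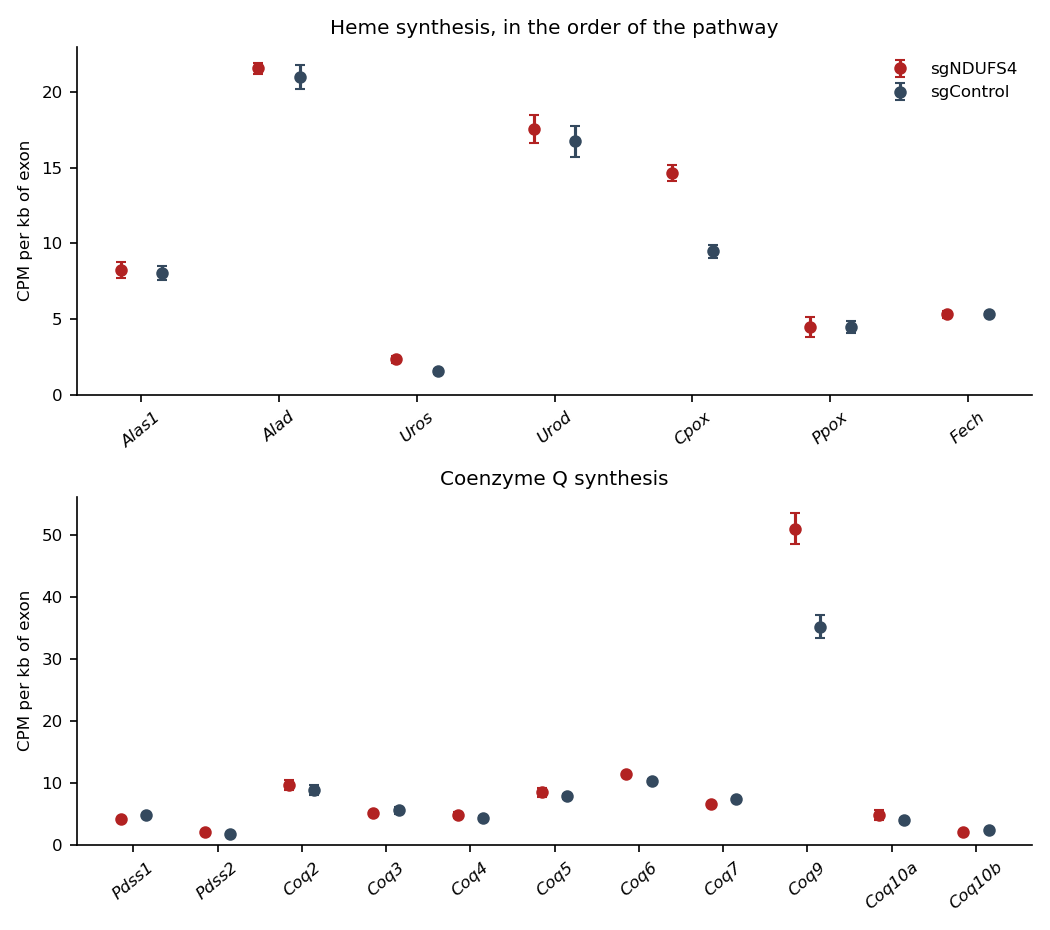
Level per length of the 7 heme enzymes in the order of the pathway (top) and of the 11 genes of coenzyme Q synthesis (bottom), as CPM per kb of annotated exon. Points are means and bars the SD over 3 libraries, sgNDUFS4 left and sgControl right: Cpox and Uros stand apart between the lines, while Coq9 at 51.0 CPM per kb in sgNDUFS4 and 35.2 in sgControl is far above the other genes of its pathway.

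Per length, Etfb was highest, at 113.3 CPM per kb of exon in sgNDUFS4 and 97.4 in sgControl, and Etfa next, at 87.0 in sgNDUFS4 and 67.2 in sgControl. Coq9 was at 51.0 CPM per kb of exon in sgNDUFS4 and 35.2 in sgControl. Nfu1 followed at 34.7 CPM per kb in sgNDUFS4 and 30.0 in sgControl, and in sgNDUFS4 Alad came next at 21.6, against 21.0 in sgControl, where Glrx5 stood between them. Glrx5 was at 15.5 CPM per kb in sgNDUFS4, below Prodh at 16.9, and at 22.1 in sgControl, above Prodh at 11.5. The rank of these 2 genes was thus turned round between the lines. Uros and Pdss2 were among the lowest, at 2.33 and 2.05 CPM per kb in sgNDUFS4 and 1.55 and 1.67 in sgControl. The SE of the log2 fold change was smallest for Etfa, at 0.041, and largest for Lyrm4, at 0.18.

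Each gene was also set beside its 50 nearest expressed neighbours on the chromosome. The neighbours of Etfdh had a median log2 fold change of 0.31, those of Coq9 0.20, those of Cpox 0.17 and those of Etfa 0.11. Centred on them, the 4 genes were still called higher, at 0.36 for Etfdh (adjusted p = 1.9e-05), 0.34 for Coq9 (1.4e-05), 0.46 for Cpox (1.1e-06) and 0.26 for Etfa (3.0e-05), by limma in each case. Prodh and Uros had neighbours near 0, with medians of 0.02 and 0.01, and centred values of 0.53 and 0.54. Glrx5 had a neighbour median of -0.07 and a centred value of -0.43 (adjusted p = 5.8e-05 by limma). Lyrm4 lost its call when centred, and Pdss1, Coq6, Isca1 and Fech gained one.

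**Figure D4:**
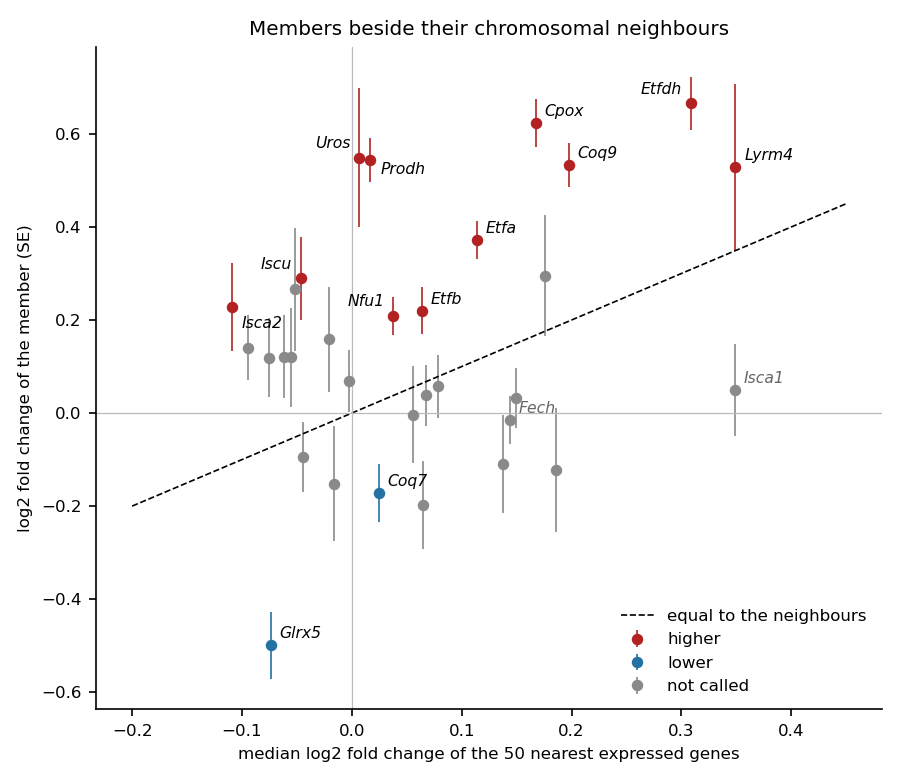
Log2 fold change of each gene of the list (vertical axis) against the median log2 fold change of its 50 nearest expressed neighbours (horizontal axis), with bars of 1 SE and a dashed line of equal values. Prodh and Uros rise with neighbours near 0, while Lyrm4 and Isca1 have neighbours at 0.35.

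Other genes of the same pathways were read from a list of 65 genes, of which 61 were tested: 14 were higher in sgNDUFS4 (23.0%), 19 were lower (31.1%) and 28 did not pass, against 31.8% higher and 20.3% lower of all genes tested. The median of their log2 fold changes was 0.02. TMM scaling gave 8 higher and 22 lower (13.1% and 36.1%), against 24.8% and 25.9% of all genes, and centring on neighbours gave 7 higher and 16 lower of 58 (12.1% and 27.6%), against 21.6% and 21.9%. Among other genes of coenzyme Q, 4 of 11 were higher and 1 lower as deposited, whereas TMM scaling, edgeR and DESeq2 each gave 2 higher and 3 lower and centring gave 2 and 2. Coq8a, an atypical kinase-like ATPase of coenzyme Q synthesis, was at 14.99, 13.05 and 14.53 CPM in sgNDUFS4, against 9.31, 6.81 and 10.55 CPM in sgControl, with a log2 fold change of 0.66 (adjusted p = 0.00022 by limma). Sdha, the catalytic subunit of complex II, which also reduces coenzyme Q, was at 517.1 ± 8.56 CPM in sgNDUFS4 and 393.6 ± 4.82 CPM in sgControl (SD, n = 3 each), a log2 fold change of 0.39 (adjusted p = 3.8e-11 by limma). The neighbours of Sdha had a median of 0.46, and centred on them it was at -0.07 and not called. Sdhb, the iron-sulfur subunit of complex II, was at 373.9 ± 4.61 CPM in sgNDUFS4 and 383.6 ± 7.03 CPM in sgControl (SD, n = 3 each) and did not pass as deposited. It was called lower with TMM scaling (-0.10, adjusted p = 0.014 by limma), edgeR and DESeq2. Centred on neighbours, Sdhb was called higher, at 0.17 (adjusted p = 0.00077 by limma). Stard7, which carries lipid to mitochondria, was lower, with a log2 fold change of -0.25 (adjusted p = 0.0018 by limma).

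Among other mitochondrial iron-sulfur genes 1 of 13 was higher (7.69%) and 3 were lower (23.1%) as deposited, against 31.8% and 20.3% of all genes tested. TMM scaling, edgeR and DESeq2 each gave 1 higher and 4 lower, and centring gave 2 and 3. Bola1, a partner of Glrx5, was higher, at 11.0 ± 2.17 CPM in sgNDUFS4 and 6.29 ± 0.378 CPM in sgControl (SD, n = 3 each), while Hspa9, the chaperone that acts with Hscb, was lower by a small step, with a log2 fold change of -0.08 (adjusted p = 0.015 by limma).

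In the cytosolic iron-sulfur group 3 of 11 genes were higher and 3 lower as deposited (27.3% each), against 31.8% and 20.3% of all genes tested. TMM scaling gave 0 higher and 3 lower (0% and 27.3%), against 24.8% and 25.9% of all genes, and edgeR and DESeq2 gave the same counts for this group. Centring gave 0 higher and 3 lower of 8 (0% and 37.5%), against 21.6% and 21.9% of all genes. Nubp2, a cytosolic scaffold subunit, was at 68.7 ± 4.65 CPM in sgNDUFS4 and 81.9 ± 2.86 CPM in sgControl (SD, n = 3 each). The glutaredoxin Glrx3 was lower, with a log2 fold change of -0.11 (adjusted p = 0.0044 by limma), and Ciapin1, an electron donor of the pathway, was higher, with 0.14 (adjusted p = 0.0032 by limma). Mms19, which delivers clusters to nuclear enzymes, was at 0.06 and did not pass.

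Among other heme genes 3 of 14 were higher (21.4%) and 5 lower (35.7%) as deposited, against 31.8% and 20.3% of all genes tested. TMM scaling and edgeR gave 2 higher and 5 lower, and DESeq2 gave 1 and 5. Centring on neighbours gave 1 higher and 2 lower (7.14% and 14.3%), against 21.6% and 21.9% of all genes, so most of the lower calls were lost. The 3 with the smallest p-values as deposited were all lower. Slc48a1, a heme transporter of the lysosome, was at 101.2 ± 2.31 CPM in sgNDUFS4 and 150.8 ± 1.69 CPM in sgControl (SD, n = 3 each), a log2 fold change of -0.57 (adjusted p = 1.8e-11 by limma). Blvrb, a biliverdin reductase, had -0.68 (adjusted p = 1.7e-06 by limma). Pgrmc1, a heme-binding membrane protein that associates with Fech, lies on chromosome X and had -0.88 (adjusted p = 7.7e-13 by limma), with a neighbour median of -0.78 and a centred value of -0.10 that was not called. Hmox2, a heme oxygenase, had -0.04 and did not pass.

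Iron supply and storage had 3 of 12 genes higher (25.0%) and 7 lower (58.3%), with a median log2 fold change of -0.16. Of all genes tested 31.8% were higher and 20.3% lower, with a median of 0.06. TMM scaling gave the same counts for these 12 genes, and centring gave 2 higher and 6 lower. The ferritin heavy chain Fth1 was at 1877 ± 12.3 CPM in sgNDUFS4 and 2159 ± 62.5 CPM in sgControl (SD, n = 3 each), and the light chain Ftl1 at 3637 ± 7.08 CPM in sgNDUFS4 and 4062 ± 190 CPM in sgControl. Their log2 fold changes were -0.20 and -0.16 (adjusted p = 2.2e-07 and 1.6e-05 by limma), and both have near-identical pseudogene copies that could take part of their reads. Aco1, the cytosolic aconitase that becomes an iron regulatory protein when it lacks its cluster, was at 67.0 ± 2.96 CPM in sgNDUFS4 and 86.5 ± 2.98 CPM in sgControl (SD, n = 3 each), a log2 fold change of -0.37 (adjusted p = 2.0e-06 by limma). Ncoa4, the ferritin receptor for autophagy, had 0.05 and did not pass.

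**Figure D5:**
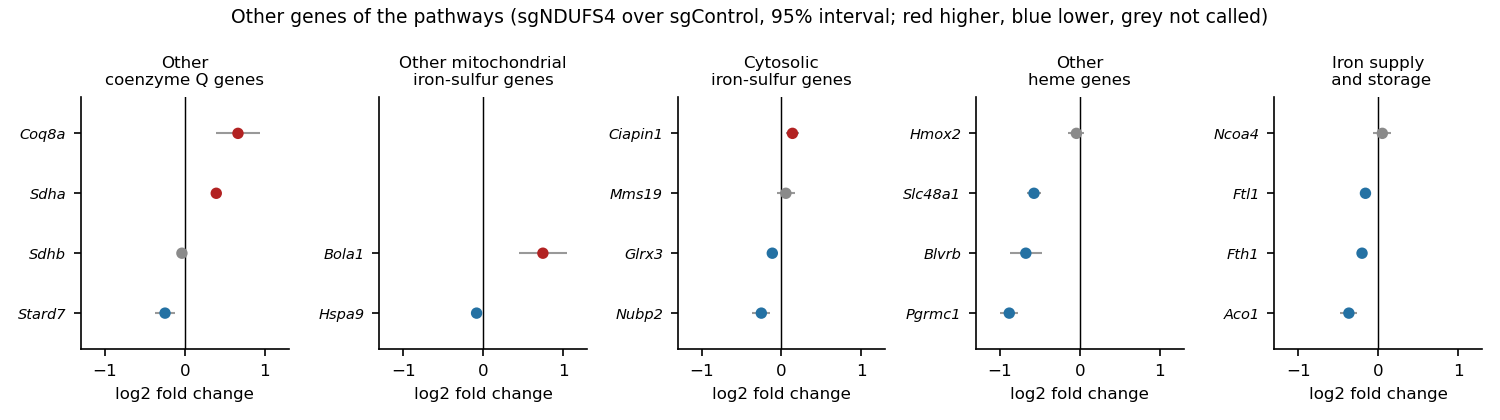
Log2 fold change of sgNDUFS4 over sgControl for the partner genes named in the text, apart from Dhodh and Gpd2, grouped by family. Each point is a gene with its 95% interval, red where called higher, blue where called lower and grey where not called. Bola1 at 0.75 and Coq8a at 0.66 stand highest, and Pgrmc1 at -0.88 and Blvrb at -0.68 stand lowest.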

How the data were processed

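RNA of 3 sgNDUFS4 and 3 sgControl libraries was extracted with TRIzol and sequenced from both ends without strand, per the labels' protocols. The submitters' processing notes name HISAT2 and GRCm38. The sources used here give no version, counting tool, annotation or filter. The authors deposited CPM values, scaled to the reads counted in genes of each library. In every library 99.98% to 100% of values above 0 were whole multiples of 1 read within a tolerance of 0.01, so that read numbers were recovered. On those reads edgeR called 2723 genes higher and 2860 lower. Intervals and the level of 3 reads cover counting or replicate error only. Of the symbols, 26 had become dates and 25 occurred more than once; none is named here. Positions are from GENCODE M21.

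The main test was limma 3.58.1 in R 4.3.3, two-sided, on log2(CPM + 0.5). It used a mean-variance trend and genes whose mean reached 1 CPM. P-values were adjusted by Benjamini-Hochberg across every gene in the fit and set against a threshold of 0.05. Fold changes on that scale understate the change of low genes. The procedure was tested on simulated counts in which far fewer genes changed than were called here. Chi-square per gene was 3.55 to 5.27 between replicates, above sampling noise, and 41.9 to 50.1 between libraries of different groups. Alternatives were pseudocounts of 0.1 and 1, a filter of 5 CPM or none, no trend, TMM scaling, quantile normalization, centring on the 50 nearest expressed neighbours, edgeR 4.0.16 and DESeq2 1.42.0 on recovered reads, a replicate block and each library left out. The genes and lists were chosen with earlier results of these data known. Named are all 33 genes and, of each partner family, up to 3 called genes with the smallest p-value and 1 gene with the highest mean that did not pass. Outside this rule, Dhodh and Gpd2 are named for their role in electron entry. Some genes that this rule takes are not reported here, and counts of genes include them.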

Additional observations from a re-analysis of the deposited data

How the results depend on the processing

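Over 17 alternatives, 9 of the 13 called genes kept their call and direction in all, Coq7, Iscu, Isca2 and Lyrm4 lost theirs in at least 1, and none of the 13 changed sign. The number of listed genes called higher lay between 9 and 10 when 1 library was left out, and the number called lower between 1 and 2. With DESeq2 8 were higher, and centring on neighbours gave 5 genes lower. Of the partner genes, 7 were higher with DESeq2, 8 with TMM scaling, 7 when centred, 8 with edgeR and 8 with quantile normalization, in place of 14, and 12 were lower without the mean-variance trend, in place of 19. Partner genes higher numbered 10 to 12 and lower 14 to 18 when 1 library was left out, while over all genes 3024 to 3388 were higher and 1959 to 2193 lower.

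TMM scaling moved the median log2 fold change of all genes to 0.0028, against 0.0611 as deposited, so that genes with small positive values took the other sign by construction. Isca1, Alas1 and Alad were at -0.0091, -0.027 and -0.021 with TMM scaling, -0.013, -0.026 and -0.021 with edgeR, -0.013, -0.026 and -0.022 with DESeq2, -0.023, -0.028 and -0.020 with quantile normalization and -0.30, -0.12 and -0.029 when centred. Fdxr was at -0.0017 with TMM scaling, -0.0019 with edgeR, -0.0023 with DESeq2 and -0.021 when centred. With 1 library left out, Nfs1 lay between -0.16 and 0.0062, Fech between -0.038 and 0.022, Isca1 between -0.011 and 0.095, Iba57 between -0.22 and 0.019, Alas1 between -0.015 and 0.079, and Ppox between -0.11 and 0.096. The cause of the changes with a library left out was not tested.

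Whether the replicate numbers pair the libraries was not settled. The correlations of same-numbered libraries, taken on deviations from their group means, were 0.0559, 0.0121 and 0.0972. Replicates 1 and 3 of sgNDUFS4 correlated best with the sgControl library of the same number, while sgNDUFS4 replicate 2 correlated best with sgControl replicate 1 (0.0353). Correlations this small cannot decide the question. The fit with the replicate block called 12 genes of the list higher and 2 lower, the added one being Pdss2 (limma adjusted p = 0.0499), and 3632 higher and 2309 lower over all genes. With 3 libraries a group and at most 25947374 reads, changes of low genes such as Lyrm4 and Uros are the least precise.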
